A study of Mus musculus with 6 samples.

Results

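The antioxidant defence genes described here are *Sod1*, *Sod2*, *Sod3*, *Cat*, *Gpx1*, *Gpx3*, *Gpx4*, *Hmox1*, *Nqo1* and *Prdx3*. Their values were taken by symbol, but the list was drawn up with earlier results of these data known. They are 10 of the 47729 genes quantified in brown adipose tissue (BAT). Each symbol matched a single gene in every mouse, and all 10 genes passed the filter on low counts that left 17668 genes for testing. The mice were wild-type male C57BL/6J animals, 6 weeks old at the start and 10 weeks old at the end of 4 weeks of feeding. One diet group received a high-fat diet (HFD) with 45% of calories from fat, and the other a standard rodent diet (low-fat diet, LFD), so the diets differed in more than their fat content. Interscapular BAT of 3 HFD-fed and 3 LFD-fed mice was sequenced, 1 library per mouse, and the sequenced mice of each diet were chosen to span the fat mass of their group (greatest, medium and least). The labels number the mice 1 to 3 in each diet without saying what the numbers stand for.

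Brown adipocytes burn fatty acids in dense mitochondria, and the respiratory chain of these mitochondria leaks electrons that reduce oxygen to superoxide. Superoxide dismutases convert superoxide to hydrogen peroxide, which catalase in peroxisomes, glutathione peroxidases and peroxiredoxins then turn into water. A further layer, which includes haem oxygenase 1 and the quinone reductase NQO1, is induced under oxidative stress by the transcription factor NRF2 (gene *Nfe2l2*), which binds antioxidant response elements in DNA.

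No antioxidant defence gene passed the test between the diets. A call needed an adjusted p below 0.01 together with a log2 fold change beyond 1.5 in size. By edgeR's quasi-likelihood test 0 of the 10 genes met this, as did 0 of all 17668 genes (0% in either direction). Without adjustment, 1169 genes were lower and 682 higher at p under 0.05. DESeq2 called 305 of all genes lower and 106 higher, limma on log2(TPM + 1) called 0 lower and 1 higher, and neither called any of the 10 genes. The log2 fold changes, HFD over LFD, ran from -0.77 (*Nqo1*) to 1.00 (*Sod2*), with a median of 0.02 beside -0.05 over all tested genes. The shares of *Sod1* and *Sod2* in superoxide dismutase mRNA did not overlap between the diets. As *Sod3* was a small part of the sum, these shares are nearly the same quantity read in reverse. Of TPM ratios between 2 genes, 17.6% over all pairs did not overlap either, and 21% of those between *Sod2* and any other gene. Mitochondrial *Sod2* provided between 25.8% and 29.5% of the superoxide dismutase transcripts in HFD-fed mice and between 9.92% and 12.8% in the LFD-fed mice. *Nqo1*, the least abundant of the genes, was the only one of the 10 whose level in TMM-normalised counts was lower in every HFD-fed mouse than in every LFD-fed mouse, and 9.23% of all tested genes had that order, so 1 of 10 is near the background.

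Total counts were between 17156991 and 21603487 per mouse, of which the 10 genes took between 0.166% and 0.292%. Mitochondrially encoded genes took from 3.87% to 22.7% of the counts, and the TMM normalization factors ran from 0.745 to 1.21, with overlapping ranges between the diets. Markers of skeletal muscle, which lies beside interscapular BAT, stood apart: all 12 were lower in every HFD-fed mouse, and their summed level was 17.7 to 229 TPM (transcript abundance per length, scaled to a fixed total) in the HFD-fed and 1983 to 13845 TPM in the LFD-fed mice. Brown adipocyte markers, including *Ucp1* and *Cidea*, were present in all mice. Their summed levels overlapped, with 1854 to 7339 TPM in the HFD-fed and 320 to 2052 TPM in the LFD-fed mice. All 10 had positive fold changes (median log2 fold change 1.98), 3 of them at an unadjusted p under 0.05 by edgeR. The summed T and NK cell markers did not overlap, with 15.4 to 48.2 TPM under HFD and 1.99 to 14.7 TPM under LFD. Of the 11 tested, 8 were higher at an unadjusted p under 0.05. All 6 fibroblast markers had negative fold changes, 2 of them at an unadjusted p under 0.05, and their summed levels overlapped (2754 to 4743 TPM under HFD, 1701 to 26222 TPM under LFD). The values are from whole tissue, in which fewer cells of a type and less RNA per cell cannot be told apart. The part of these cells in the values below was not tested.

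On the TPM scale, which divides by transcript length and so allows genes to be compared, *Gpx4* was the most abundant of the genes, with a mean of 609 TPM over the 6 mice. It was followed by *Gpx1* (473 TPM), *Sod1* (370 TPM), *Gpx3* (298 TPM), *Cat* (286 TPM), *Hmox1* (202 TPM), *Prdx3* (139 TPM) and *Sod2* (91.5 TPM). *Sod3* (26.4 TPM) and *Nqo1* (2.62 TPM) were the lowest. Every gene overlapped its neighbour in this order between mice except *Nqo1*, whose highest value of 4.37 TPM lay below the lowest *Sod3* value of 14.2 TPM.

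**Figure D1:**
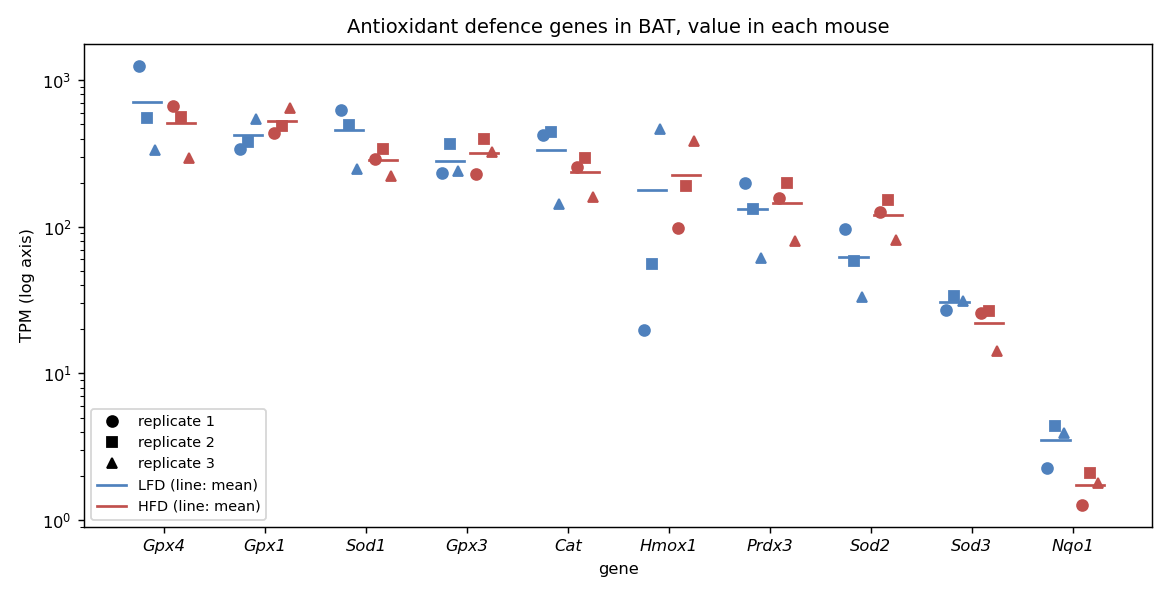
TPM (log axis) of each antioxidant defence gene in each mouse, ordered by mean level; blue stands for LFD-fed and red for HFD-fed mice, symbols mark the replicate number and lines the mean of 3 mice. *Hmox1* spread most, from 19.6 to 461 TPM, and only *Sod3* and *Nqo1* had every HFD-fed mouse below every LFD-fed mouse in TPM, as 11.6% of all tested genes had.

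Superoxide dismutase 1, encoded by *Sod1*, is the copper and zinc enzyme of the cytosol, superoxide dismutase 2 is the manganese enzyme of the mitochondrial matrix, and superoxide dismutase 3 is secreted and bound to the extracellular matrix. *Sod1* and *Sod2* set the shares described next, so the 250 bases before their RefSeq start sites are shown (GRCm38.p6, plus strand). Capitals mark a match to TGACNNNGC, the core of the antioxidant response element, which was searched on both strands with N standing for any base.
*Sod1*, chr16:90220512-90220761: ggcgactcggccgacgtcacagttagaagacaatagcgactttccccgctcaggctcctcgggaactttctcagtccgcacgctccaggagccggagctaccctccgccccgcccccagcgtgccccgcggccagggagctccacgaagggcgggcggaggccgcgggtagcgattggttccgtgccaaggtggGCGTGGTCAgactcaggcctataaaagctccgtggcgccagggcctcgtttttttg
*Sod2*, chr17:13007589-13007838: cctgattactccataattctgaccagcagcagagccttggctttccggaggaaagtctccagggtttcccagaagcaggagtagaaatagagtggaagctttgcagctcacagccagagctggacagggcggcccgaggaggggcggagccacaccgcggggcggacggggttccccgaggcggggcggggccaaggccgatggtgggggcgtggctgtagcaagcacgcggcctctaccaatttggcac

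The *Sod1* window held 1 match, on the minus strand, from 56 to 48 bases before the start (positions -56 to -48), and the *Sod2* window held 0. The *Sod2* window lies inside the gene as GENCODE bounds it, from 13006846, so the bases before that outer start were not searched. RefSeq windows of 300 bases, with 250 before and 50 after a start, were at hand for 8 of the 10 genes (11 windows), and the *Sod1* window was the 1 with a match. None was at hand for *Sod3* and *Hmox1*, so *Hmox1*, an NRF2 target, was not searched. The window of *Nqo1*, another NRF2 target, held 0, so these short windows can lack the core in known targets. Of all 32851 promoter windows, 4071 (12.4%) held the core. Of the windows of other NRF2 target genes, 7 of 24 did. A match is a run of letters and not evidence of binding.

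*Sod2* (ENSMUSG00000006818, chromosome 17 from 13006846 to 13040063, GRCm38) measured 127, 153 and 81.5 TPM in the HFD-fed mice (replicates 1, 2 and 3) and 96.8, 58.0 and 33.0 TPM in the LFD-fed mice, in the same order. The diets overlapped through LFD replicate 1, while each HFD-fed mouse exceeded the LFD-fed mouse of its number. The mean of HFD-fed mice was 120 ± 36.3 TPM and that of LFD-fed mice 62.6 ± 32.1 TPM (SD, n = 3 each). The log2 fold change of 1.00 (standard error, SE, 0.69, 95% interval -0.63 to 2.64) had an adjusted p of 0.703 by edgeR's quasi-likelihood test. The interval included 0. The fold change was 1.96 without LFD replicate 1, 0.59 without LFD replicate 3 and 0.67 without HFD replicate 1.

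*Sod1* (ENSMUSG00000022982, chromosome 16 from 90220754 to 90226329) had 290, 340 and 221 TPM in the HFD-fed mice and 629, 493 and 249 TPM in the LFD-fed mice, replicates 1 to 3. LFD replicates 1 and 2 were above every HFD-fed mouse, and LFD replicate 3 was among them. The log2 fold change was -0.59 (SE 0.60, edgeR adjusted p = 0.825), and 0.16 without LFD replicate 1. *Sod3* (ENSMUSG00000072941, chromosome 5 from 52363791 to 52371418) had 25.8, 26.5 and 14.2 TPM in the HFD-fed and 27.2, 33.8 and 31.0 TPM in the LFD-fed mice. In TPM every HFD-fed mouse was below every LFD-fed mouse, though by as little as 26.5 against 27.2 TPM, and in TMM-normalised log2 CPM the diets overlapped. In TPM 11.6% of the tested genes had every HFD-fed mouse below and 1.65% every HFD-fed mouse above the LFD-fed mice. In log2 CPM these were 9.23% and 6.72%. The log2 fold change of *Sod3* was -0.18 (SE 0.43, edgeR adjusted p = 0.943), 0.06 without LFD replicate 1 and 0.14 without HFD replicate 3.

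A share within a library does not depend on scaling between libraries. *Sod2* was 28.6%, 29.5% and 25.8% of the summed *Sod1*, *Sod2* and *Sod3* TPM in the HFD-fed mice (replicates 1, 2 and 3). In the LFD-fed mice, in replicate order, it was 12.8%, 9.92% and 10.6%. The means of 28.0% ± 1.95 and 11.1% ± 1.54 (SD, n = 3 each) differed by 16.9 percentage points, more than the spread within either diet, with an exact two-sided permutation p of 0.1, the smallest that 3 mice against 3 allow. The share of *Sod1* was 66.9% ± 2.48 in the HFD-fed and 82.5% ± 2.55 in the LFD-fed mice (SD, n = 3 each), again without overlap (exact two-sided permutation p = 0.1). As *Sod3* was a small part of the sum, this is nearly the *Sod2* share in reverse and not a separate result. Over all pairs of tested genes, 17.6% of TPM ratios did not overlap between the diets. The share of *Sod3* overlapped, with 4.49% to 5.84% in the HFD-fed and 3.61% to 9.90% in the LFD-fed mice. Computed from counts, which weigh the long *Sod2* transcript more, the *Sod2* share differed by 27.5 points. With mice paired by replicate number, the *Sod2* share was higher by the same 16.9 points, in 3 of 3 pairs (exact sign-flip p = 0.25, the smallest for 3 pairs).

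**Figure D2:**
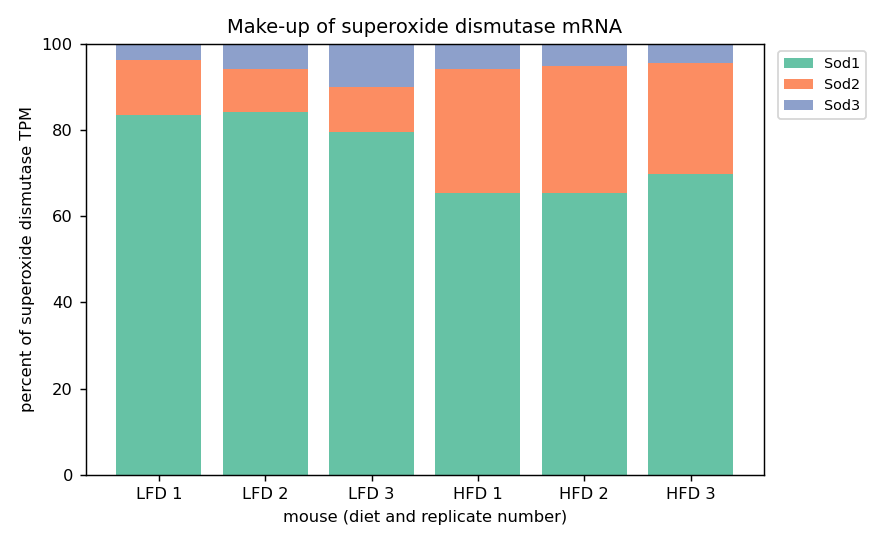
Percent of superoxide dismutase TPM from *Sod1*, *Sod2* and *Sod3* in each mouse, by diet and replicate number; each bar adds to 100 and is 1 mouse. The *Sod2* segment was 9.92% to 12.8% in the 3 LFD-fed and 25.8% to 29.5% in the 3 HFD-fed mice.

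The same separation held against some of the other members, while the ratios of *Sod2* to *Gpx1*, *Gpx3* and *Hmox1* overlapped between the diets. The *Sod2* to *Cat* ratio in TPM lay at 0.495, 0.522 and 0.514 under HFD, above the 0.229, 0.131 and 0.231 under LFD. The *Sod2* to *Gpx4* ratio was 0.191 to 0.276 in the HFD-fed and 0.0774 to 0.105 in the LFD-fed mice. The *Sod2* to *Prdx3* ratio, between the enzyme that makes hydrogen peroxide in the matrix and one that removes it there, was 0.769 to 1.02 in the HFD-fed and 0.436 to 0.536 in the LFD-fed mice. Of the 9 ratios of *Sod2* to another member, 6 did not overlap between the diets, and of all 45 ratios between members 10 (22.2%) did not. Over all pairs of the 17345 tested genes with a TPM above 0 in every mouse, 17.6% of ratios did not overlap, and for *Sod2* against all those genes 21.0% did not. The count over all 45 ratios is near the background, while that of *Sod2*, 6 of 9, is above its 21.0%. Those 9 ratios share *Sod2* and are not separate results, and the ratios were chosen after the values had been seen.

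*Sod2* was also compared with 10 nuclear-encoded mitochondrial genes, among them citrate synthase (*Cs*) and *Cox4i1*. The log2 CPM of *Sod2* minus the mean of that list was 0.13, 0.06 and 0.14 in the HFD-fed mice (replicates 1, 2 and 3) and -0.35, -0.53 and -0.61 in the LFD-fed mice, in replicate order. The diets did not overlap, and the difference between the means was 0.61. The comparisons of *Sod2* with a list mean were chosen after the values were seen, and no share over all genes was computed for them. The list itself had summed levels of 3133 to 6549 TPM in the HFD-fed and 2103 to 6019 TPM in the LFD-fed mice. Against the 10 brown adipocyte markers the order was the opposite: *Sod2* minus that list was 1.80 ± 0.42 in the HFD-fed and 2.90 ± 0.51 in the LFD-fed mice (SD, n = 3 each), without overlap.

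Catalase (*Cat*, ENSMUSG00000027187, chromosome 2 from 103453849 to 103485160), the hydrogen peroxide-splitting enzyme of peroxisomes, had 256, 294 and 159 TPM in the HFD-fed and 422, 441 and 143 TPM in the LFD-fed mice. LFD replicates 1 and 2 were above and LFD replicate 3 below every HFD-fed mouse. The log2 fold change was -0.33 (SE 0.67, edgeR adjusted p = 0.932), and 0.25 without LFD replicate 1. Relative to the mean of 12 peroxisome genes, *Cat* was higher by 2.86 ± 0.17 in the HFD-fed and by 3.01 ± 0.37 in the LFD-fed mice (log2 CPM, SD, n = 3 each), with overlap.

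*Prdx3* (ENSMUSG00000024997, chromosome 19 from 60864051 to 60874556) encodes the mitochondrial peroxiredoxin, which uses thioredoxin 2 to reduce hydrogen peroxide. It had 158, 199 and 79.6 TPM in the HFD-fed and 200, 133 and 61.6 TPM in the LFD-fed mice. The values of the diets were interleaved, and the log2 fold change was 0.22 (SE 0.72, 95% interval -1.49 to 1.94, edgeR adjusted p = 0.961). It was -0.15 without HFD replicate 1 and -0.21 without LFD replicate 3. *Prdx3* minus the nuclear-encoded mitochondrial list overlapped between the diets, with -1.08 ± 0.20 in the HFD-fed and -0.87 ± 0.23 in the LFD-fed mice (log2 CPM, SD, n = 3 each). By replicate number it was -0.96, -0.97 and -1.31 under HFD and -0.72, -0.75 and -1.13 under LFD, so the HFD-fed mouse was lower in 3 of 3 pairs.

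The 3 glutathione peroxidases among the genes are selenoproteins, in which an in-frame TGA codon is read as selenocysteine at the active site rather than as a stop. They are 3 of the 24 genes with an annotated selenocysteine in GENCODE M21 (GRCm38), and their translation needs a recoding step that the other genes here do not. The codon is in capitals below with 12 bases of coding sequence on each side, to show what sets these transcripts apart.
*Gpx1*, chr9:108339451-108339453, codon 47 of 201 in Gpx1-201: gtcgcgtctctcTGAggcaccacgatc
*Gpx3*, chr11:54907256-54907258, codon 73 of 226 in Gpx3-201: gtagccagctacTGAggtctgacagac
*Gpx4*, chr10:80054737-80054739, codon 129 of 253 in Gpx4-201 and 73 of 197 in Gpx4-202: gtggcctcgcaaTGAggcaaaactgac

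*Gpx1* (ENSMUSG00000063856, chromosome 9 from 108338903 to 108340343) encodes the main cytosolic and mitochondrial glutathione peroxidase. It had 439, 486 and 650 TPM in the HFD-fed and 341, 380 and 540 TPM in the LFD-fed mice. The diets overlapped through LFD replicate 3, and within each pair of the same number the HFD-fed mouse was the higher. Means were 525 ± 111 and 420 ± 106 TPM (SD, n = 3 each), and the log2 fold change was 0.56 (SE 0.30, edgeR adjusted p = 0.589). In log2 CPM the difference within the 3 pairs was 0.51, 0.57 and 0.62, the narrowest range of any member that was higher in HFD-fed mice. Red cells contain this enzyme. All 8 red cell markers had positive fold changes, 2 of them at an unadjusted p under 0.05, where 3.86% of all tested genes were higher. Their summed levels were 10191 to 18047 TPM in the HFD-fed and 3280 to 15199 TPM in the LFD-fed mice, and their part in *Gpx1* was not tested. *Gpx1* minus the mean of those markers was 1.70 ± 0.29 in the HFD-fed and 2.74 ± 1.23 in the LFD-fed mice (log2 CPM, SD, n = 3 each), with overlap.

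*Gpx3* (ENSMUSG00000018339, chromosome 11 from 54902453 to 54910377) encodes the secreted plasma enzyme. It had 230, 398 and 323 TPM in the HFD-fed and 232, 366 and 239 TPM in the LFD-fed mice, with the ranges nearly coinciding and a log2 fold change of 0.35 (SE 0.32, edgeR adjusted p = 0.805). *Gpx4* (ENSMUSG00000075706, chromosome 10 from 80047166 to 80056439) encodes the enzyme that reduces lipid hydroperoxides in membranes and protects cells from ferroptosis. It had 662, 563 and 295 TPM in the HFD-fed and 1250, 552 and 332 TPM in the LFD-fed mice. LFD replicate 1 stood far above the other mice, and without it the log2 fold change of -0.39 (SE 0.79, edgeR adjusted p = 0.933) turned to 0.79.

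Of the summed TPM of *Gpx1* to *Gpx8*, *Gpx4* took 48.0%, 36.9% and 21.9% in the HFD-fed mice (replicates 1, 2 and 3) and 65.1%, 39.5% and 25.5% in the LFD-fed mice, in replicate order. The shares of *Gpx1* were 31.8%, 31.9% and 48.2% under HFD against 17.7%, 27.2% and 41.5% under LFD. *Gpx1* took a larger and *Gpx4* a smaller share in the HFD-fed mouse of each same-numbered pair, while the diets overlapped for both (exact two-sided permutation p = 0.4 and 0.6). The *Gpx3* share was 22.2% ± 4.97 in the HFD-fed and 18.9% ± 7.07 in the LFD-fed mice (SD, n = 3 each; exact two-sided permutation p = 0.7), a difference of 3.36 points that became -0.05 points without LFD replicate 1. *Gpx8*, an endoplasmic reticulum enzyme, was 3.21% ± 0.75 in the HFD-fed and 6.31% ± 2.20 in the LFD-fed mice (SD, n = 3 each), without overlap (exact two-sided permutation p = 0.1).

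**Figure D3:**
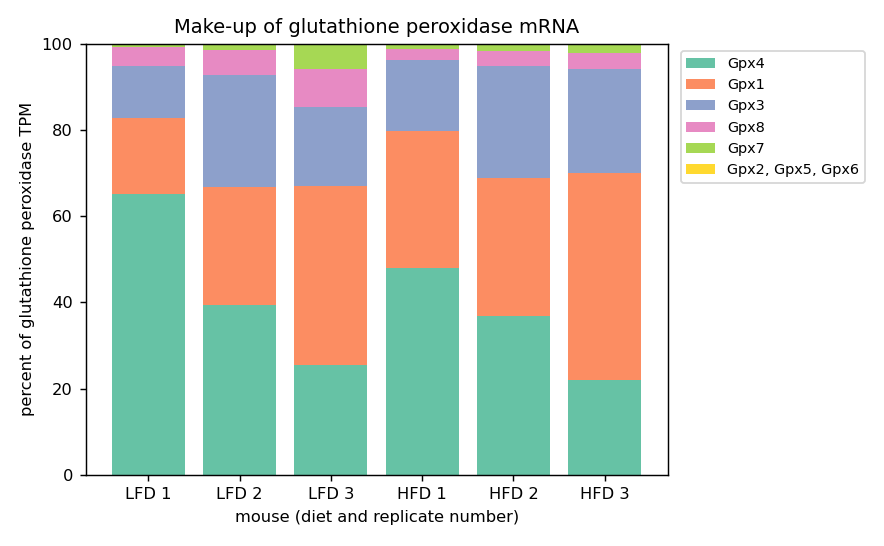
Percent of glutathione peroxidase TPM from each gene in each mouse, by diet and replicate number; each bar adds to 100 and is 1 mouse. *Gpx4* ran from 21.9% to 65.1% and *Gpx1* from 17.7% to 48.2%, and both varied within a diet by more than they differed between diets.

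*Hmox1* (ENSMUSG00000005413, chromosome 8 from 75093621 to 75100589) encodes haem oxygenase 1, which breaks haem down to biliverdin, iron and carbon monoxide. It is an NRF2 target and is also high in macrophages that clear red cells. *Hmox1* had 98.5, 191 and 383 TPM in the HFD-fed mice (replicates 1, 2 and 3) and 19.6, 56.2 and 461 TPM in the LFD-fed mice, in replicate order. LFD replicate 3 had the highest and LFD replicate 1 the lowest value of all mice, a 23.5-fold range within 1 diet against 3.89-fold in HFD-fed mice. Its SD of log2 CPM among LFD-fed mice was larger than that of 96.6% of all tested genes. The log2 fold change of 0.70 (SE 0.92, 95% interval -1.49 to 2.89, edgeR adjusted p = 0.878) was 2.51 (adjusted p = 0.0839) without LFD replicate 3. It was 0.20 without LFD replicate 1, 0.30 without LFD replicate 2 and 0.23 without HFD replicate 3. DESeq2 gave 0.72 and returned no p for this gene.

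The summed level of 12 macrophage markers was 1861, 2342 and 3908 TPM in the HFD-fed mice (replicates 1, 2 and 3) and 587, 2553 and 4352 TPM in the LFD-fed mice, in replicate order. In TPM, LFD replicate 1 was lowest and LFD replicate 3 highest for the marker sum as for *Hmox1*. In log2 CPM, HFD replicate 3 was highest for both (7.47 for the list mean, 8.57 for *Hmox1*). Of the 12 markers, 9 had positive and 3 negative fold changes, with 4 higher and 1 lower at an unadjusted p under 0.05 by edgeR. Over all tested genes 3.86% were higher and 6.62% lower at that level. *Hmox1* minus the mean of the list was 0.69 ± 0.38 in the HFD-fed and 0.16 ± 1.18 in the LFD-fed mice (log2 CPM, SD, n = 3 each), with overlap. The part of macrophage number in *Hmox1* was not tested.

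*Nqo1* (ENSMUSG00000003849, chromosome 8 from 107388225 to 107403206) encodes the quinone reductase that is a standard readout of NRF2 activity. It was scarce, with 41, 50 and 46 counts under HFD against 59, 90 and 69 counts under LFD, or 1.27, 2.11 and 1.79 TPM against 2.25, 4.37 and 3.91 TPM. Each HFD-fed mouse was below each LFD-fed mouse in TPM and in log2 CPM, in the latter with 1.22 ± 0.15 against 1.96 ± 0.17 (SD, n = 3 each; exact two-sided permutation p = 0.1, the smallest possible). The log2 fold change of -0.77 (SE 0.31, 95% interval -1.51 to -0.03) had an unadjusted p of 0.0433 and an adjusted p of 0.462 by edgeR's quasi-likelihood test. *Nqo1* was the 1 member at an unadjusted p under 0.05, where 6.62% of all tested genes were lower and 3.86% higher, and also the 1 with no overlap in log2 CPM. At these counts and after adjustment the difference did not pass, and *Hmox1* and *Nqo1*, both NRF2 targets, had fold changes of opposite sign.

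**Figure D4:**
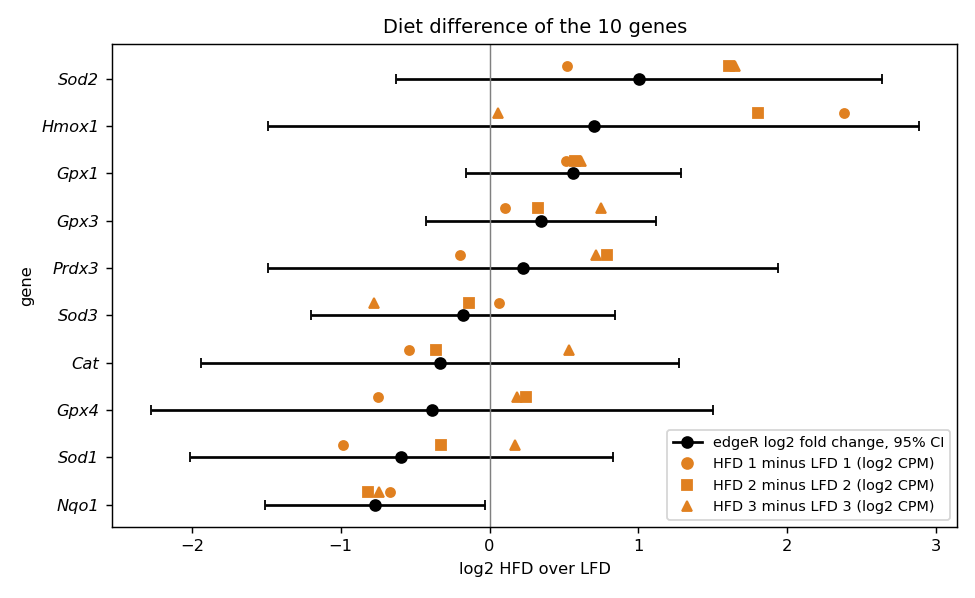
Log2 difference, HFD over LFD, of each gene; black points with bars are edgeR log2 fold changes with 95% intervals (n = 3 per diet), and orange symbols the log2 CPM difference within each same-numbered pair. The interval of *Nqo1* (-1.51 to -0.03) alone excludes 0, and the pair differences of *Gpx1* (0.51 to 0.62) and *Nqo1* (-0.82 to -0.67) are the most even.

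Mice with the same replicate number deviated together from their diet mean, with correlations across genes of 0.229 to 0.522 in the 3 pairs. In log2 CPM, *Sod2*, *Gpx1*, *Gpx3* and *Hmox1* were higher in the HFD-fed mouse of all 3 pairs, and *Nqo1* was lower in all 3, where 21.1% of all tested genes were higher and 21.3% lower. Blocking on replicate number, edgeR again called 0 of the 10 genes. At an adjusted p under 0.05 it counted 0 members, where 0.877% of all genes were lower and 0.164% higher. The number of members at an unadjusted p under 0.05 went from 1 to 4 under the block, as the count over all genes went from 1169 lower and 682 higher to 1548 lower (8.76%) and 1546 higher (8.75%). These were *Sod2* (log2 fold change 1.27, SE 0.31, edgeR adjusted p = 0.148), *Hmox1* (1.43, SE 0.51, adjusted p = 0.254), *Gpx1* (0.57, SE 0.19, adjusted p = 0.233) and *Nqo1* (-0.77, SE 0.26, adjusted p = 0.236). The other 6 had blocked adjusted p-values between 0.445 and 0.891.

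The genes differed in how they varied between mice, whatever the diet. *Sod1* and *Cat* had the most alike profiles over the 6 mice, with a root mean square difference of centred log2 CPM of 0.26, and *Gpx4* was nearest to *Sod1* (0.33) and *Prdx3* to *Gpx4* (0.35). *Sod1*, *Cat*, *Gpx4* and *Prdx3* were highest in LFD replicate 1, then in HFD replicate 1, and lowest in LFD replicate 3. *Gpx1* and *Gpx3* were each nearest to the other (0.39). *Hmox1* was the most distant of the members from each of the other 9, and its nearest, *Gpx1*, was at 1.27. The profiles share libraries and normalization, so their likeness is a description of these 6 mice.

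**Figure D5:**
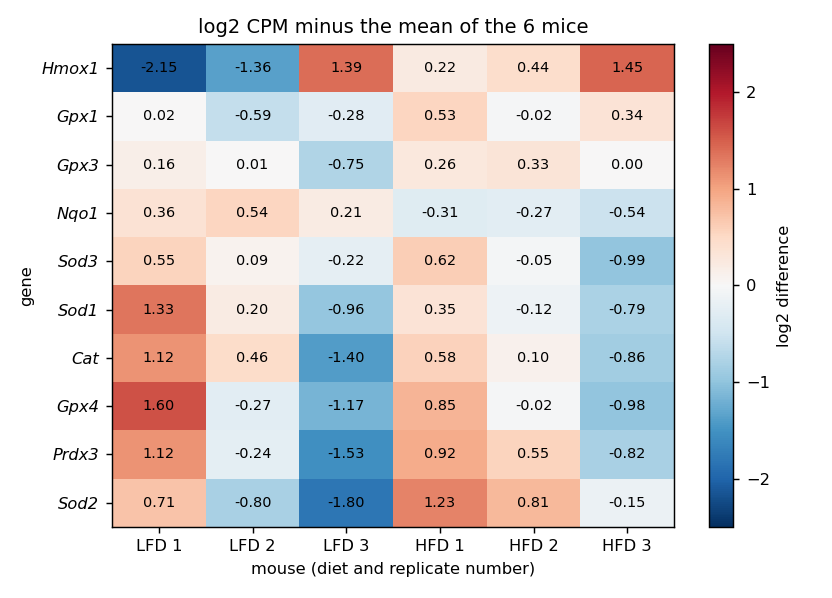
Log2 CPM of each gene minus its mean over the 6 mice, by mouse; red is above and blue below the mean. *Hmox1* runs from -2.15 (LFD replicate 1) to 1.45 (HFD replicate 3), while *Sod1*, *Cat*, *Gpx4* and *Prdx3* are highest in LFD replicate 1 and lowest in LFD replicate 3.

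The genes that supply and control these enzymes were listed by function. No gene of these functional lists was called by edgeR's quasi-likelihood test, where the background was 0%. The 9 NRF2 regulators had log2 fold changes between -0.20 and 0.47 and a median of -0.04, and 0 were at an unadjusted p under 0.05. *Nfe2l2*, which encodes NRF2, had 33.8, 55.1 and 65.5 TPM in the HFD-fed and 33.5, 55.7 and 62.9 TPM in the LFD-fed mice, with overlap. In log2 CPM every HFD-fed mouse was above every LFD-fed mouse for *Nfe2l2*. That order held for 1 of the 9 regulators and for 6.72% of all tested genes. *Nfe2l2* had a log2 fold change of 0.25 (edgeR adjusted p = 0.742). *Bach1*, which represses *Hmox1*, had one of 0.47 (adjusted p = 0.800).

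Of 20 other NRF2 targets, 13 had negative and 7 positive fold changes, with a median of -0.33. In the unpaired and in the blocked fit 2 were at an unadjusted p under 0.05, both lower. Over all tested genes 6.62% were lower at that level in the unpaired and 8.76% in the blocked fit. The count of 2 of 20 is thus near the background. The 2 were the glutathione transferase gene *Gsta3* (log2 fold change -4.77, standard error 1.51, edgeR adjusted p = 0.349) and the malic enzyme gene *Me1* (-3.65, standard error 1.37, edgeR adjusted p = 0.424). *Me1* had 115, 74.6 and 23.6 TPM in the HFD-fed and 2109, 581 and 129 TPM in the LFD-fed mice. Every HFD-fed mouse was below every LFD-fed mouse in TPM, as for 11.6% of all tested genes, with overlap in log2 CPM. Malic enzyme 1 makes NADPH for fatty acid synthesis as well as for glutathione recycling. Blocked on replicate number, *Gsta3* had an adjusted p of 0.0306 by edgeR, and DESeq2 called it lower (adjusted p = 0.00297).

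Among 8 NADPH suppliers, which include *Me1*, 6 had negative and 2 positive fold changes. *Idh2*, the NADP-linked isocitrate dehydrogenase of mitochondria, had 166, 187 and 117 TPM in the HFD-fed and 76.7, 86.2 and 100 TPM in the LFD-fed mice. Every HFD-fed mouse was above every LFD-fed mouse, and the log2 fold change, HFD over LFD, was 1.13 (SE 0.38, edgeR adjusted p = 0.374). This order held for 1 of the 8 suppliers, and for 1.65% of all tested genes in TPM and 6.72% in log2 CPM. *Nnt*, the transhydrogenase of the inner mitochondrial membrane that C57BL/6J mice carry with an inactivating deletion, had 6.44, 9.90 and 11.7 TPM in the HFD-fed and 9.94, 26.1 and 26.1 TPM in the LFD-fed mice. At a log2 fold change of -0.86 (SE 0.22, edgeR adjusted p = 0.246) it showed overlap in TPM and none in log2 CPM. In log2 CPM, every HFD-fed mouse was below every LFD-fed mouse for 1 of the 8 suppliers and for 9.23% of all tested genes.

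In glutathione synthesis and recycling, 13 of 14 genes were tested, 9 with negative and 4 with positive fold changes and a median of -0.15. *Ggt5* (-1.48, SE 0.32, edgeR adjusted p = 0.185) and *Chac1* (-2.96, SE 0.65, edgeR adjusted p = 0.190), which both break glutathione or its conjugates down, were below in every HFD-fed mouse. In log2 CPM 9.23% of all tested genes had that order, as had 2 of the 13 genes here. *Chac1* rested on 15 to 25 counts per HFD-fed and 48 to 261 per LFD-fed mouse. DESeq2 called *Chac1* lower (adjusted p = 6.45e-04). For *Ggt5* it gave an adjusted p of 0.0060 at a log2 fold change of -1.47, which fell short of the fold threshold. The glutaredoxin gene *Glrx*, named after its values were seen, was the third of the list at an unadjusted p under 0.05, and the 1 that was higher (1.40, SE 0.33, edgeR adjusted p = 0.207). The other peroxiredoxin and thioredoxin genes had 9 positive and 3 negative fold changes among 12, a median of 0.09 and 0 at an unadjusted p under 0.05. The lowest p belonged to *Txnrd1* (0.41, edgeR adjusted p = 0.678) and *Srxn1* (0.41, edgeR adjusted p = 0.740), which encode thioredoxin reductase 1 and sulfiredoxin.

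Among the other glutathione peroxidases, *Gpx2*, *Gpx5* and *Gpx6* were too low to test, *Gpx7* had a log2 fold change of -0.21 (edgeR adjusted p = 0.942) that became 0.65 without LFD replicate 3, and *Gpx8* had one of -0.86 (SE 0.27, edgeR adjusted p = 0.332). The partners of *Hmox1* and *Nqo1* included the constitutive haem oxygenase gene *Hmox2* (0.42, edgeR adjusted p = 0.494) and the biliverdin reductase gene *Blvra* (0.42, edgeR adjusted p = 0.706). For metal loading and selenoprotein synthesis, 10 genes had a median of -0.07 and 0 at an unadjusted p under 0.05, with *Sepp1*, the selenium carrier of plasma, at -0.46 (edgeR adjusted p = 0.790) and *Eefsec* at -0.29 (adjusted p = 0.848). The 12 peroxisome genes had a median of -0.29 and the 10 nuclear-encoded mitochondrial genes one of 0.57, each with 0 genes at an unadjusted p under 0.05. *Abcd3* (0.69, edgeR adjusted p = 0.805), *Pex5* (-0.43, adjusted p = 0.824), *Hspd1* (0.67, adjusted p = 0.760) and *Uqcrc1* (0.86, adjusted p = 0.786) had the smallest p of these lists. Without LFD replicate 1, *Eefsec* was at 0.00881 and *Pex5* at 0.11.

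Enzymes that produce oxidants were tested for 14 of 16 genes, with 8 negative and 6 positive fold changes. *Cybb*, the catalytic subunit of the phagocyte NADPH oxidase, had 31.0, 50.6 and 101 TPM in the HFD-fed and 5.48, 38.1 and 47.1 TPM in the LFD-fed mice. Its log2 fold change by edgeR was 1.31 with a standard error of 0.57 (adjusted p = 0.492). Its membrane partner *Cyba* had one of 1.23 (SE 0.54, edgeR adjusted p = 0.496). Both were above in every HFD-fed mouse in log2 CPM and overlapped between the diets in TPM, beside the macrophage markers given above. In log2 CPM 6.72% of all tested genes had that order, as had 2 of the 14 genes here.

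The block on replicate number moved the counts of several lists at an unadjusted p under 0.05, where 8.76% of all tested genes were lower and 8.75% higher. Of the 10 nuclear-encoded mitochondrial genes, 0 were higher in the unpaired fit and 5 in the blocked fit, and the list median went from 0.57 to 0.81. These were *Uqcrc1* (blocked log2 fold change 1.07, edgeR adjusted p = 0.192), *Cycs* (0.96, adjusted p = 0.192), *Hspd1* (0.86, adjusted p = 0.276), *Sdha* (0.86, adjusted p = 0.277) and *Ndufs1* (0.77, adjusted p = 0.284). Of the 14 oxidant producers, the number higher went from 0 to 4. Among them were the phagocyte NADPH oxidase subunit genes *Cyba* (1.40, edgeR adjusted p = 0.125), *Cybb* (1.46, adjusted p = 0.182) and *Ncf4* (1.38, adjusted p = 0.218). The number higher went from 0 to 1 in the thioredoxin list (*Txnrd2*) and the peroxisome list (*Abcd3*), and from 1 to 2 in the NADPH list (with *Me3*) and in glutathione synthesis and recycling (with *Gss*). None of the genes named for the block here passed adjustment, and those outside the 2 of each list with the smallest unpaired p were named after their values were seen.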

How the data were processed

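BAT of 3 HFD-fed and 3 LFD-fed mice was sequenced in single-end reads of 75 bases after ribosomal RNA removal. After adapter trimming (Trimmomatic 0.36), the authors quantified the reads by RSEM 1.3.0 on GRCm38.p4 with Ensembl annotation. They deposited expected counts, which are not normalized, and TPM values, which RSEM scales by effective length to a fixed total per mouse. The deposited files also give the SD of each count from read sharing between genes, at most 0.214% of the count for any of the 10 genes.

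Expected counts were rounded and tested in R 4.3.3 with edgeR 4.0.16 (quasi-likelihood test, TMM normalization, filterByExpr, Benjamini-Hochberg adjustment over all tested genes, no block). Thresholds were those of the study's methods, which used DESeq2. Log2 CPM used a prior count of 2. Standard errors were taken as the fold change over the square root of F. The common dispersion was 0.201. Replicates were separate mice, and no same-diet pair was a repeated library (chi-square over its degrees of freedom, 71.7 to 558). Alternatives were DESeq2 1.42.0, limma 3.58.1 on log2(TPM + 1), other scalings and filters, the replicate block, mitochondrial genes left out and each mouse left out. The edgeR test was also run on simulated counts, and no result given here rests on that run.

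The replicate numbers come from the labels. Same-numbered mice deviated together in all 3 pairs (r of 0.229 to 0.522 across genes, against -0.528 to 0.0532 in the 6 other pairs). Deviations were taken from the mean of each diet and add to 0, so these ranges are not independent of each other. A fit paired by number is given for the members and for each list whose count it moved. The labels do not say that the numbers mark matched mice, and the blocked p-values rest on that pairing.

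Members and lists were chosen with earlier results of these data known. The text names the 10 genes and, in each companion list, the 2 tested genes with the smallest p, others being marked. Member ratios and comparisons with a list mean were chosen after the values were seen. Positions are from GENCODE M21.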

Additional observations from a re-analysis of the deposited data

How the results depend on the processing

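Of the 10 genes, 0 were called in either direction under the alternatives run. The count over all genes moved from 0 to 305 lower and 106 higher with DESeq2 and to 1 higher with limma on log2(TPM + 1), where the median log2 fold change of all genes was -0.18 instead of -0.05. The *Sod2* share differed by 27.5 points when computed from counts, and by 16.1 to 18.0 points with 1 mouse left out. The *Gpx3* share differed by -0.0493 to 7.01 points with 1 mouse left out, and reversed without LFD replicate 1. With 1 mouse left out, log2 fold changes ran from 0.59 to 1.96 for *Sod2*, from -0.99 to 0.16 for *Sod1*, -0.63 to 0.14 for *Sod3*, -0.77 to 0.25 for *Cat*, -0.95 to 0.79 for *Gpx4*, -0.21 to 1.14 for *Prdx3*, -0.54 to 0.65 for *Gpx7*, -0.484 to 0.00881 for *Eefsec* and -0.74 to 0.11 for *Pex5*. The sign of *Sod1*, *Cat*, *Gpx4*, *Eefsec* and *Pex5* reversed without LFD replicate 1. That of *Sod3* reversed without LFD replicate 1 (0.06) or HFD replicate 3, that of *Prdx3* without HFD replicate 1 (-0.15) or LFD replicate 3, and that of *Gpx7* without LFD replicate 3. *Sod2*, *Gpx1*, *Gpx3*, *Hmox1* (0.20 to 2.51) and *Nqo1* kept their sign under every alternative run. DESeq2 called *Chac1* (adjusted p = 6.45e-04) and *Gsta3* (adjusted p = 0.00297). With the replicate block, paired by number, *Gpx7* reversed to 0.0586, no call of the 10 genes changed, and the *Sod2* share differed by 16.9 and the *Gpx3* share by 3.36 points. The cause of these changes was not tested.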
